A study of Mus musculus with 4 samples.

Results

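Muscle spots with more Myh1 than Myh4 were a small class of the injured mouse Achilles tendon sections, 295 of the 10662 spots under tissue on 4 Visium arrays. They were 2.77% of the 10649 spots kept with at least 500 UMIs (unique molecular identifiers, 1 per captured mRNA molecule) and belonged to 3329 muscle spots. A spot is a small region of tissue that can hold parts of several fibres and other cells, so the classes described here are classes of regions and not of fibres. Members were chosen by the measured UMIs of 20 muscle genes. A spot was a member when 14 fast muscle genes together made up at least 5% of its UMIs, when Myh1 had more UMIs than Myh4, and when 6 slow muscle genes together stayed under 1%. The 14 fast genes were Acta1, Ckm, Myh4, Myh1, Myh2, Tnnt3, Tnni2, Tnnc2, Mylpf, Myl1, Actn3, Pvalb, Atp2a1 and Mybpc2, and the 6 slow genes were Myh7, Myl2, Myl3, Tnnt1, Tnni1 and Tnnc1. Because the rule read these 20 genes in the same spots, their values are given as a description with no test.

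The sections came from mice of 12 weeks, 14 days after a punch of 0.5 mm was made in the left Achilles tendon about 2 mm above the heel bone. The F592A group carried the TrkA F592A allele and was labelled as treated with 1NMPP1, and the WT group carried wild-type TrkA and was labelled as control. TrkA is the receptor of nerve growth factor, and the F592A change makes its kinase sensitive to the inhibitor 1NMPP1; neither dose nor route is given in the sources used here, nor whether WT mice received the drug. Tissue was pooled from 4 mice of each genotype, and male and female animals were used. The labels do not tie a section to an animal, so p-values measure the spread between sections. That spread may be technical, and between the WT sections it also covers a difference in sex-linked RNA, given below. Each group had 2 sections, called F592A 1, F592A 2, WT 1 and WT 2 after the numbers in the labels.

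Adult fibres of mouse limb muscle are typed by the myosin heavy chain they use: Myh7 in slow fibres, Myh2 in IIa, Myh1 in IIx and Myh4 in IIb fibres. In mice IIx fibres lie between IIa and IIb fibres in speed and in reliance on mitochondria. The Achilles tendon joins the gastrocnemius, which is largely fast in mice, and the soleus, which is rich in slow and IIa fibres, to the heel bone. Injured muscle makes new fibres that pass through a stage with the embryonic myosin Myh3 and the perinatal myosin Myh8.

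Since the ratio of Myh1 to Myh4 set the class, the 250 bases before the start of each of these neighbouring genes are shown, from RefSeq on GRCm38.p6, plus strand, 5′ to 3′. Capitals mark the runs of at least 12 bases that both sequences hold, 35 bases in each. The Myh1 stretch is chr11:67199852-67200101 and the Myh4 stretch is chr11:67237562-67237811.
Myh1: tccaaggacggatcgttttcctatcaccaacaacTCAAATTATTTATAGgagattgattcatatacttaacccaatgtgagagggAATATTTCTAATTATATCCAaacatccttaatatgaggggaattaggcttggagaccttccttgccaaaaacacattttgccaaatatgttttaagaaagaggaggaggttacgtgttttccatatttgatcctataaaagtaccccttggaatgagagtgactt
Myh4: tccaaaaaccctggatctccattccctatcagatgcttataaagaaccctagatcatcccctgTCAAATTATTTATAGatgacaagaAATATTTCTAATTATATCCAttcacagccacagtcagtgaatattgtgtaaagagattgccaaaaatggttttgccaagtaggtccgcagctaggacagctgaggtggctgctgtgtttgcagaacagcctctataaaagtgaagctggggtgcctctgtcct
The longer shared run has 20 bases, and on either strand it was found in 3 of 32851 promoters of the same length in the RefSeq table, those of Myh1, Myh2 and Myh4. The letters TATAAA had their last match 32 bases before the start in Myh1 and 31 bases before it in Myh4 (7.59% of the promoters hold TATAAA). E-box letters CANNTG, which read the same on both strands, were found at 0 places in the Myh1 stretch and at 2 places in the Myh4 stretch, and 66.2% of the promoters hold at least 1. A match describes letters and not a site in use.

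The members numbered 84 in F592A 1, 87 in F592A 2, 99 in WT 1 and 25 in WT 2. They were compared with 2492 Myh4-over-Myh1 spots, which met the same limits but had at least as much Myh4 as Myh1, and with 542 slow-bearing muscle spots, in which the fast list reached 5% and the slow list reached 1%. The median share of the fast list in members was 9.22% and 8.97% in F592A and 7.50% and 7.61% in WT. In Myh4-over-Myh1 spots it was 12.1% and 11.6% in F592A and 11.9% and 10.2% in WT. The part of this gap in the differences of other genes was not tested. Section totals ran between 30154873 and 43957617 UMIs. Summed over the members, the depth was 1072860 UMIs in F592A 1 and 574520 in F592A 2, against 1296692 in WT 1 and 247128 in WT 2. The median member held 5504 UMIs in F592A 1 and 5397 in F592A 2, against 7440 in WT 1 and 8335 in WT 2. The sections shared spot barcodes, since the arrays have one layout: 727 of 4386 barcodes were used in all 4. WT 2 stood apart in its sex-linked genes: its members held 34 Xist UMIs and 1 Ddx3y UMI, whereas the members of F592A 1, F592A 2 and WT 1 held no Xist UMI and 96, 68 and 141 Ddx3y UMIs. Xist is the RNA that silences an X chromosome in females and Ddx3y lies on the Y chromosome, so results that rest on WT 2 are given with and without it. Sex-linked RNA was thus unlike between the 2 WT sections and alike between the F592A sections, so the groups were not balanced in it.

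**Figure D1:**
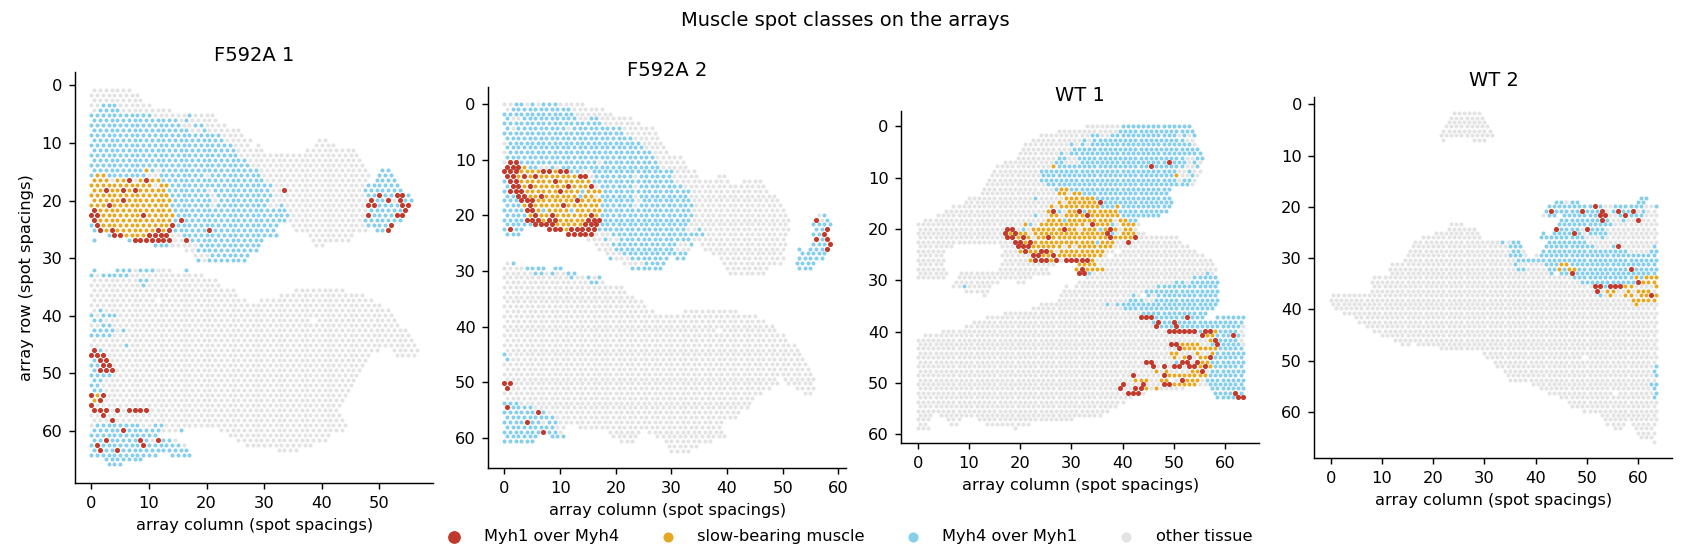
Position of every kept spot on the 4 arrays, F592A sections left and WT sections right, axes in spot spacings. Red marks the 84, 87, 99 and 25 Myh1-over-Myh4 spots, yellow the slow-bearing muscle spots, blue the Myh4-over-Myh1 spots and grey other tissue. In F592A 1, F592A 2 and WT 1 many red spots lie along the edge of the yellow area.

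Most contacts of the members were with spots of another class. A kept spot was counted once for each member it touched. Of these contacts, 31.2% in F592A 1, 47.0% in F592A 2, 25.1% in WT 1 and 13.7% in WT 2 were with another member. Slow-bearing spots made up 18.8% and 29.4% of the contacts in the F592A sections, against 30.7% and 8.90% in the WT sections. Myh4-over-Myh1 spots made up 31.4% and 17.8% in F592A, against 16.6% and 57.5% in WT. The other muscle classes touched their own class more often. Of the contacts of Myh4-over-Myh1 spots, 87.9%, 88.3%, 88.0% and 81.2% were with that same class in F592A 1, F592A 2, WT 1 and WT 2. For slow-bearing spots the values were 81.8%, 71.2%, 65.1% and 45.2%. Same-class contact also depends on how common a class is, which was not corrected for. In that order of sections, Myh4-over-Myh1 spots were 27.5%, 26.1%, 23.0% and 14.5% of kept spots. Slow-bearing spots were 4.90%, 4.15%, 8.41% and 1.63%, and members 2.96%, 3.17%, 3.25% and 1.24%. The members fell into 34 and 24 connected patches in the F592A sections, against 37 and 18 in the WT sections. The largest patch held 14 spots in F592A 1 and 39 in F592A 2, against 14 in WT 1 and 4 in WT 2. These are descriptions of 4 sections, and no test was made of them.

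By the limits of the rule, the share of members did not differ between the groups beyond the spread of the sections. It was 2.96% and 3.17% of kept spots in the F592A sections (mean 3.06% ± 0.143, SD, n = 2), against 3.25% and 1.24% in the WT sections (mean 2.24% ± 1.43, SD, n = 2). WT 1 lay above both F592A sections and WT 2 below both. The difference, F592A minus WT, was 0.821 percentage points (two-sided exact permutation test p = 1.00, where the smallest p that 2 sections against 2 allow is 0.33). Without WT 2 it was -0.188 points. Among spots that reached the fast list limit, members made up 8.37% and 9.47% in F592A, against 9.38% and 7.10% in WT. With the fast list held at 10% or more the groups separated, at 0.988% and 0.509% of kept spots in F592A, against 0.230% and 0.296% in WT. That gave the smallest p the same permutation test allows, 0.33. In spots thinned to 2000 UMIs, which left out 340 and 61 shallower spots in F592A and 461 and 290 in WT, the shares were 3.52% and 3.16% in F592A, against 3.60% and 1.44% in WT.

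The adult fast myosins themselves showed that few members were spots of Myh1 alone. Of the summed UMIs of Myh1, Myh2 and Myh4, Myh1 made up 55.4% and 59.0% in the F592A members, against 54.1% and 52.7% in the WT members. Myh4, which the rule allowed up to the level of Myh1, kept 27.1% and 19.0% in F592A, against 19.9% and 33.3% in WT. Myh2, which the rule did not set against Myh1, made up 17.4% and 22.0% in F592A, against 26.0% and 14.0% in WT. In 57 of the 295 members Myh2 had more UMIs than Myh1, in 11 and 15 of the F592A spots and in 30 and 1 of the WT spots. The median ratio of Myh1 to Myh4 UMIs in a member was 2.13 in F592A 1 and 2.71 in F592A 2, against 3.26 in WT 1 and 1.34 in WT 2. At least 2 times as much Myh1 as Myh4 was found in 181 members, of which 5 were in WT 2, and 4 members had no Myh4 UMI.

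**Figure D2:**
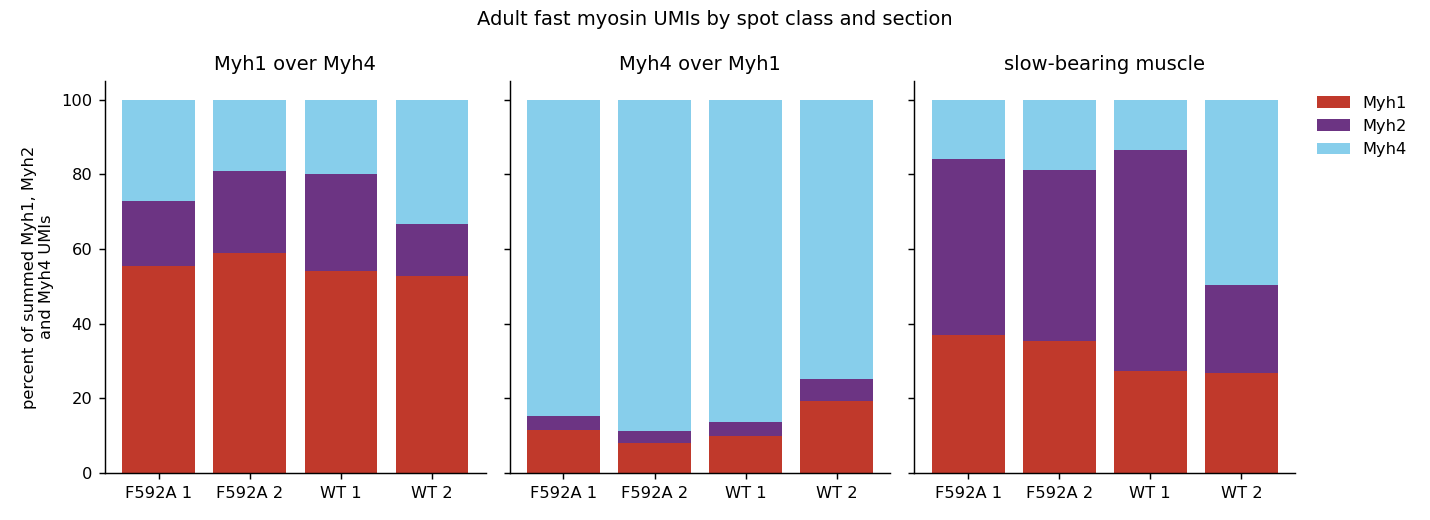
Percent of the summed Myh1, Myh2 and Myh4 UMIs that came from each gene (y axis) by section (x axis), in Myh1-over-Myh4, Myh4-over-Myh1 and slow-bearing spots. Myh1 makes up 52.7% to 59.0% in the first class, and Myh2 is a visible part of it in every section.

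The limits of the rule cut through a continuum. There were 40 members with a fast list of 5 to 6% and 44 spots just outside at 4 to 5%. The slow list lay between 0.8 and 1% in 45 members and between 1 and 1.2% in 63 spots left outside. Myh1 exceeded Myh4 by no more than 20% in 27 members, Myh4 exceeded Myh1 by no more than 20% in 49 spots outside, and 6 spots had equal counts. The 1% limit on slow genes put 355 spots with more Myh1 than Myh4 outside the class, more than the 295 it kept.

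Among the 14 fast genes of the rule, described without a test, the members held Myh1 at 9478 and 11007 CPM in F592A and 5639.7 and 8797 CPM in WT, where CPM is the UMIs of a gene scaled to a total of 1000000 in that class and section. In Myh4-over-Myh1 spots Myh1 was at 2626 and 1864 CPM in F592A and 2124 and 3954 CPM in WT. Myh4 was at 4636 and 3554 CPM in F592A and 2078 and 5564 CPM in WT in members and at 19405 and 20345 CPM in F592A and 18729.9 and 15354 CPM in WT in Myh4-over-Myh1 spots. Pvalb, parvalbumin, the calcium buffer of fast fibres, was at 1401 to 4576 CPM in members, against 7695 to 9564 CPM in Myh4-over-Myh1 spots and 514 to 1979.7 CPM in slow-bearing spots. Actn3, the fast Z disc alpha-actinin, was at 594 to 1052 CPM in members, against 1953 to 2467 CPM and 215 to 563 CPM in those classes, and Mybpc2, the fast myosin-binding protein C, was at 229 to 514 CPM, against 1077 to 1380.3 CPM and 96.5 to 362 CPM. The ranges of these 3 genes in members did not overlap those of the Myh4-over-Myh1 spots. The rule read all 3 genes, so this gap is no independent sign of a difference, and its share over all genes was not counted. Acta1, skeletal actin, was close to level between the classes, at 16113 to 21375 CPM in members, 19321 to 21260.1 CPM in Myh4-over-Myh1 spots and 18639.8 to 26329 CPM in slow-bearing spots. Ckm, muscle creatine kinase, was at 4657 to 8322 CPM in members and 8667 to 12336 CPM in Myh4-over-Myh1 spots. The fast troponin and light chain genes Tnnt3, Tnni2, Tnnc2, Mylpf and Myl1 were at 6110.2 to 8576 CPM, 4037 to 6745 CPM, 5341 to 6744 CPM, 5046 to 8585 CPM and 5714 to 7365 CPM in members, and the fast calcium pump gene Atp2a1 was at 3106 to 6343 CPM. The 6 slow genes, held down by the rule, were still present. Myl3, the slow and cardiac essential light chain, was at 1419 and 2863 CPM in F592A and 1143 and 393 CPM in WT, and Myh7, slow myosin, was at 164 and 334 CPM in F592A and 616 and 623 CPM in WT. Myl2, Tnnt1, Tnni1 and Tnnc1 were at 590.0 to 895 CPM, 303 to 1026 CPM, 124 to 804 CPM and 212 to 869 CPM.

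Beyond Myh1, 4 genes had been linked to the IIx name, and the rule read none of them. Tested against Myh4-over-Myh1 spots with the section as a block, Mss51 and Casq1 were lower in the members, and Mybpc1 and Pdlim3 did not pass the threshold. These genes therefore do not set the members apart from Myh4-over-Myh1 spots in the direction of the name, and the spots are called here by their rule. Mss51, a mitochondrial protein of fast muscle, was at 129 and 69.6 CPM in F592A and 15.4 and 105 CPM in WT in members and at 123 and 109 CPM in F592A and 126 and 345 CPM in WT in Myh4-over-Myh1 spots (log2 fold change -1.26 ± 0.30, SE, adjusted p = 0.0164). In F592A 1 the 2 classes were close, and the gap was wide in both WT sections. The Mss51 call was lost without either WT section, at log2 fold changes of -0.73 and -1.12, and where the fast list had to reach 10% of UMIs the value was 0.08. Casq1, the fast calsequestrin that stores calcium in the sarcoplasmic reticulum, was at 1452 and 856 CPM in F592A and 969 and 931 CPM in WT, against 1757 and 1572 CPM in F592A and 1572 and 1522 CPM in WT in Myh4-over-Myh1 spots (log2 fold change -0.74 ± 0.17, adjusted p = 0.0128), a call also lost without either WT section. Mybpc1, slow myosin-binding protein C, had a log2 fold change of 0.44 ± 0.23 (adjusted p = 0.327) with levels in members of 1089.6 and 1413 CPM in F592A and 1010.3 and 1052 CPM in WT, against 711 and 564 CPM in F592A and 621 and 1513 CPM in WT. Pdlim3, a Z disc protein that binds alpha-actinin, had -0.01 ± 0.17 (adjusted p = 0.992). Against slow-bearing spots Mss51 (1.77 ± 0.25, adjusted p = 9.83e-06), Casq1 (0.58 ± 0.16, adjusted p = 0.0123) and Pdlim3 (0.51 ± 0.17, adjusted p = 0.0407) were higher in the members.

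**Figure D3:**
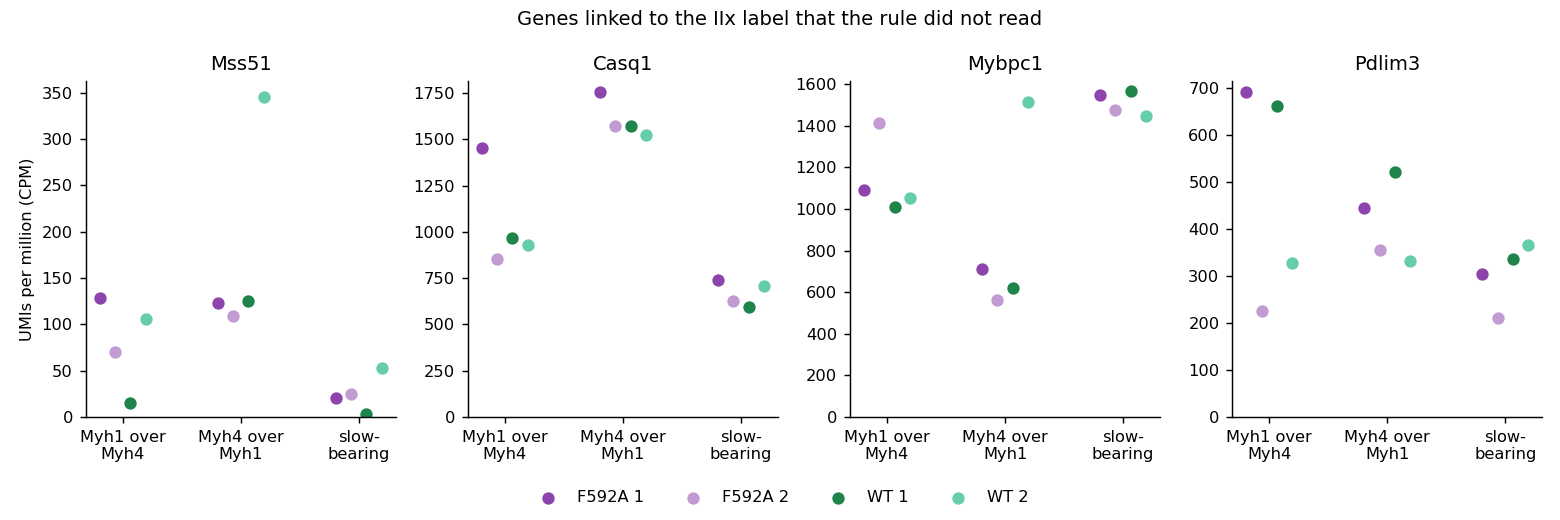
CPM (y axis) of Mss51, Casq1, Mybpc1 and Pdlim3 in the 3 muscle classes (x axis), 1 point per section, F592A purple and WT green. Casq1 is lower in Myh1-over-Myh4 than in Myh4-over-Myh1 spots in each section, and Mss51 in Myh4-over-Myh1 spots of WT 2 stands far above the other sections.

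Set against Myh4-over-Myh1 spots of the same sections, the members had lower levels of 2 genes of polyamine metabolism and of 7 genes of glycolysis and glycogen use, higher levels of 6 genes of fatty acid use, and differences in both directions among genes of calcium storage and release. The test was edgeR's quasi-likelihood test on UMIs summed per section and class, with Benjamini-Hochberg adjustment over all genes. Outside the 20 genes of the rule, 10675 genes were tested and 542 passed an adjusted p of 0.05, which is 5.08%. Of these 184 were higher in members (1.72%) and 358 were lower (3.35%). Each list count below is to be read against these shares, and the median log2 fold change of all tested genes was 0.04. Leaving out 1 section gave between 212 calls (without F592A 1) and 969 (without F592A 2), with 219 without WT 1 and 328 without WT 2.

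Amd1 had the largest drop. It encodes S-adenosylmethionine decarboxylase, which feeds the synthesis of spermidine and spermine, and it was at 28.9 and 24.4 CPM in F592A and 10.0 and 0 CPM in WT in members, against 163 and 300.1 CPM in F592A and 195 and 11.9 CPM in WT in Myh4-over-Myh1 spots (log2 fold change -3.50 ± 0.25, adjusted p = 5.96e-08). WT 2 was low in both classes. The near-identical copy Amd2 moved the same way (-2.45 ± 0.25, adjusted p = 1.97e-06), but the RefSeq promoter entries of this pair share a run of 48 bases, and how reads were split between the copies is uncertain. Smox, spermine oxidase, was at 55.0 and 73.1 CPM in F592A and 36.2 and 24.3 CPM in WT in members, against 266 and 297 CPM in F592A and 155 and 54.5 CPM in WT in Myh4-over-Myh1 spots (log2 fold change -2.18 ± 0.19, adjusted p = 2.44e-07). Members were lower in all 4 sections for each of these 3 genes, and 22.4% of all tested genes lay on the same side in all 4. Of the 7 tested genes in the polyamine and creatine list, 2 were lower, Amd1 and Smox, and 2 were higher: Gatm, the enzyme that starts creatine synthesis (1.05, adjusted p = 0.0140), and Ckmt2, mitochondrial creatine kinase (0.84, adjusted p = 0.0445). The call of Gatm was lost without WT 1 and that of Ckmt2 without F592A 1, F592A 2 or WT 2, and Gatm turned to -0.49 where the fast list had to reach 10%.

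Genes of glucose use were also among the largest drops. Pfkfb3, which makes the sugar phosphate that activates glycolysis, was at 24.2 and 43.5 CPM in F592A and 19.3 and 12.1 CPM in WT in members, against 128 and 160.2 CPM in F592A and 147 and 53.0 CPM in WT in Myh4-over-Myh1 spots (-2.52 ± 0.21, adjusted p = 2.44e-07). Prkag3, the AMPK gamma subunit of fast glycolytic muscle, was at 81.1 and 34.8 CPM in F592A and 71.7 and 40.5 CPM in WT, against 262 and 234 CPM in F592A and 223 and 116 CPM in WT (-2.01 ± 0.18, adjusted p = 4.08e-07). Gpd2, the mitochondrial member of the glycerol phosphate shuttle, was at 23.1 to 52.6 CPM in members and at least 101 CPM in Myh4-over-Myh1 spots (-1.85 ± 0.18), and its cytosolic partner Gpd1 changed by -1.35 ± 0.20. In the glycolysis and glycogen list 7 of 17 tested genes were lower and none was higher, with a list median of -0.49. The glycogen phosphorylase kinase subunits Phka1 (-1.50 ± 0.17, adjusted p = 9.97e-06) and Phkg1 (-1.61 ± 0.21, adjusted p = 5.63e-05), glycogen phosphorylase Pygm (-1.0 ± 0.21), Pgm1 (-1.01 ± 0.19), Pgam2 (-0.76 ± 0.19) and Gapdh (-0.63 ± 0.18) completed the 7. Leaving out 1 section ended the calls of Gapdh and Pgam2 (without any 1 of F592A 1, WT 1 and WT 2), Pygm (without F592A 1 or WT 1) and Pgm1 (without WT 1). Ldha, lactate dehydrogenase A, had -0.45 and did not pass.

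The other genes with the largest drops did not belong to 1 list. Mstn, myostatin, the secreted inhibitor of muscle growth, was at 61.5 and 19.1 CPM in F592A and 25.4 and 64.7 CPM in WT in members, against 116 and 129 CPM in F592A and 115 and 97.8 CPM in WT in Myh4-over-Myh1 spots (-1.70 ± 0.23, adjusted p = 1.11e-04). Plcd4, a phospholipase C, changed by -2.35 ± 0.21, Cib2, a calcium- and integrin-binding protein, by -1.89 ± 0.20, and Tmem233, a small membrane protein, by -1.91 ± 0.18. The gene 2310065F04Rik changed by -2.05 ± 0.20. Ppl, periplakin, a protein of the epidermal envelope, changed by -1.94 ± 0.30, and all 7 tested keratinocyte genes were lower in members as well. The summed keratinocyte list was at 491 and 1862 CPM in F592A members and 467 and 247 CPM in WT members, against 1637 and 3489 CPM in F592A and 996 and 293 CPM in WT Myh4-over-Myh1 spots. The part of skin RNA in these differences was not tested.

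Of 18 tested genes in the list of muscle transcription factors 5 were lower in members, 1 was higher and the other 12 did not pass, with a list median of -0.12; DESeq2 called 3 of them, Maf, Sox6 and Rbfox1. Maf, a large Maf factor, was at 165 and 185 CPM in F592A and 184 and 291 CPM in WT in members, against 432 and 486 CPM in F592A and 429 and 441 CPM in WT in Myh4-over-Myh1 spots (-1.28 ± 0.17, adjusted p = 9.07e-05). In mice the large Maf factors drive Myh4, and its relative Mafa also was lower (-0.78 ± 0.19, adjusted p = 0.0189). Sox6, which represses slow genes, had -1.26 ± 0.20 (adjusted p = 4.23e-04), Rbfox1, a splicing factor kept in this list, had -1.3 ± 0.20 (adjusted p = 2.58e-04), and Tbx15, a factor of glycolytic fibres, had -0.59 ± 0.16 (adjusted p = 0.0303). The 1 member of the list that was higher was Vgll2, a cofactor of TEAD factors (0.89 ± 0.21, adjusted p = 0.0164), and its call was lost without any 1 of F592A 2, WT 1 and WT 2. The call of Mafa was lost without F592A 1 or WT 2, and that of Tbx15 without F592A 1 or WT 1.

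Some fatty acid and oxygen genes were higher in members. In the list of fatty acid uptake and oxidation 6 of 16 tested genes were higher and none lower, with a median of 0.65, and 3 of 6 in the list of oxygen storage and capillary supply. DESeq2 called 2 of the fatty acid genes, Fabp3 and Acadl, and 1 of the oxygen genes, Mb. Fabp3, the muscle fatty acid-binding protein, was at 622 and 1323 CPM in F592A and 527 and 339.9 CPM in WT in members, against 322 and 299 CPM in F592A and 271 and 228 CPM in WT in Myh4-over-Myh1 spots (1.07 ± 0.22, adjusted p = 0.00500). F592A 2 held the highest Fabp3 level, and members were above Myh4-over-Myh1 spots in all 4 sections. Acadl, a long-chain acyl-CoA dehydrogenase (0.89 ± 0.20), Plin5, which coats lipid droplets near mitochondria (1.08 ± 0.31), Cd36, a fatty acid transporter (0.65 ± 0.17), Cpt2 (0.78 ± 0.23) and Hadhb (0.73 ± 0.19) were the other 5. Mb, myoglobin, was at 4510.4 and 6658 CPM in F592A and 2999 and 2889 CPM in WT in members, against 1677 and 1182 CPM in F592A and 1407 and 1708 CPM in WT in Myh4-over-Myh1 spots (1.33 ± 0.25, adjusted p = 0.00246). The endothelial genes Cdh5 (0.63 ± 0.15) and Pecam1 (0.54 ± 0.15) were higher too, and Cav1 at 0.34 did not pass. Leaving out 1 section ended the calls of Acadl (without WT 2), Cd36 and Cdh5 (without F592A 1 or WT 2), Hadhb (without F592A 2 or WT 2), Plin5 (without F592A 1, F592A 2 or WT 2), Cpt2 (without any 1 of the 4) and Pecam1 (without F592A 1, WT 1 or WT 2). Of 22 nuclear genes of oxidative phosphorylation none passed by edgeR or DESeq2, with 4 at an unadjusted p under 0.05. Of the 22, 20 had positive values, with a median of 0.28, and Ndufv1 of complex I had the smallest p (0.46 ± 0.17, adjusted p = 0.134). Ppargc1a, a coactivator of mitochondrial genes, had -0.56 ± 0.34 (adjusted p = 0.410).

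Calcium handling was split between paralogs. Casq2, the slow and cardiac calsequestrin, was at 94.1 and 66.1 CPM in F592A and 341 and 146 CPM in WT in members, against 18.1 and 13.2 CPM in F592A and 67.5 and 45.2 CPM in WT in Myh4-over-Myh1 spots (2.08 ± 0.16, adjusted p = 1.34e-07), so that it was higher in all 4 sections where Casq1 was lower. Atp2a2, the slow calcium pump SERCA2, was at 386 and 686 CPM in F592A and 1070.4 and 781 CPM in WT, against 179.9 and 191 CPM in F592A and 355 and 502 CPM in WT (1.2 ± 0.19, adjusted p = 4.58e-04). Sln, sarcolipin, a small inhibitor of the calcium pumps, was at 46.6 and 47.0 CPM in F592A and 467 and 465 CPM in WT, against 8.95 and 10.0 CPM in F592A and 107 and 163 CPM in WT (1.88 ± 0.17, adjusted p = 6.37e-07). These were the 3 of 15 tested genes of the sarcoplasmic reticulum and triad that were higher. With Casq1, 4 others were lower: Trdn, triadin (-1.27 ± 0.18), Ryr1, the calcium release channel (-0.89 ± 0.16), and the junctophilins Jph1 (-0.82 ± 0.15) and Jph2 (-0.72 ± 0.16). The call of Jph2 was lost without any 1 of F592A 1, WT 1 and WT 2.

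Genes of the Z disc and of stretch sensing were among the largest rises. Csrp3, the muscle LIM protein, was at 771 and 451 CPM in F592A and 866 and 643 CPM in WT in members, against 142 and 62.8 CPM in F592A and 199 and 302 CPM in WT in Myh4-over-Myh1 spots (2.02 ± 0.22, adjusted p = 6.10e-06). Actn2, the Z disc alpha-actinin of slow and oxidative fibres, was at 1153 and 1288 CPM in F592A and 1030.3 and 842 CPM in WT, against 320.4 and 214 CPM in F592A and 337 and 425 CPM in WT (1.66 ± 0.22), the opposite of its fast paralog Actn3. The titin-binding ankyrin repeat genes Ankrd2 (2.02 ± 0.24) and Ankrd1 (1.91 ± 0.25), Myom3 of the M band (1.5 ± 0.21), the thin filament nucleator Lmod2 (1.49 ± 0.19) and Atp1b1, a sodium pump subunit (1.43 ± 0.20), completed the set. In the Z disc and M band list 7 of 25 tested genes were higher and 7 were lower. Small heat shock proteins moved with them: 4 of 10 heat shock genes were higher, Cryab (1.15 ± 0.20), Hspb7 (1.32 ± 0.23), Hspb6 (0.71 ± 0.20) and Hspb1 (0.64 ± 0.16). The calls of Hspb1 and Hspb6 were each lost in 3 of the 4 fits that left out a section. All 4 slow fibre markers outside the rule were higher: Csrp3, Atp2a2, Myoz2 (1.32 ± 0.21) and Tpm3, slow tropomyosin (0.84 ± 0.17). These values move with the limit on slow genes, a choice made after the data were seen: with the slow list held under 0.5% Sln was at 0.95 and Ankrd2 at 0.60, both short of the threshold, and Tpm3 was at 0.05. With the fast list held at 10% or more Tpm3 was at -0.12.

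Most tested markers of young fibres were higher in members. Myh8 was at 119 and 26.1 CPM in F592A and 556 and 121 CPM in WT in members, against 12.0 and 5.98 CPM in F592A and 106 and 27.6 CPM in WT in Myh4-over-Myh1 spots (2.40 ± 0.19, adjusted p = 1.36e-07). Myh3 was at 26.1 and 1.74 CPM in F592A and 555 and 364 CPM in WT, against 2.40 and 0.855 CPM in F592A and 105 and 73.2 CPM in WT (2.31 ± 0.20, adjusted p = 2.44e-07). Of 9 tested genes of regenerating muscle 6 were higher, among them Myog, myogenin (1.71 ± 0.21), Tnnt2, cardiac troponin T, which new fibres also make (1.83 ± 0.25), and Mymk, the fusion protein myomaker (1.98 ± 0.27). None of 3 satellite cell genes passed by edgeR or DESeq2, nor had any an unadjusted p under 0.05. Chrna1, the acetylcholine receptor alpha subunit, which young and denervated fibres make in excess, was at 39.1 and 31.3 CPM in F592A and 121 and 16.2 CPM in WT, against 9.17 and 5.98 CPM in F592A and 50.1 and 19.0 CPM in WT (1.35 ± 0.25, adjusted p = 0.00186). Of the ubiquitin ligase genes that mark atrophy, Fbxo32 was lower (-0.77 ± 0.20, adjusted p = 0.0292), a call lost without F592A 1 or WT 1, and Trim63 had -0.45 ± 0.16 (adjusted p = 0.112). A spot was counted as rich in embryonic myosin when Myh3 and Myh8 made up at least 0.05% of its UMIs, a limit set after the data were seen, and 1 and 0 members of F592A and 30 and 7 members of WT met it. Without such spots Myog was at 0.99, Chrna1 at 1.18 and Tnnt2 at 1.3 and no longer passed. The limit took 30.3% and 28.0% of the WT members, against 8.57% and 5.10% of the WT Myh4-over-Myh1 spots. These losses cannot be told apart from that unequal removal. Myh8 and Myh3 still passed, but that limit read both genes, so their values there are not independent of it.

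Of the 24 genes with the largest differences, 16 passed the threshold in every alternative that tested them: Amd1, Amd2, Smox, Pfkfb3, Prkag3, Gpd2, Mstn, Plcd4, Cib2, Tmem233, 2310065F04Rik, Casq2, Csrp3, Actn2, Myh3 and Myh8. For Myh3 and Myh8, the alternative without spots rich in embryonic myosin was set by these genes themselves. Of 10 tenocyte genes none passed between the fast classes by edgeR or DESeq2, with 2 at an unadjusted p under 0.05, and the summed list was at 39219 and 18849 CPM in F592A members and 29129 and 60232 CPM in WT members, against 27092 and 19662 CPM in F592A and 28836 and 57144 CPM in WT Myh4-over-Myh1 spots. In such spots fewer cells of a type and less RNA per cell cannot be told apart. Members of more than 20000 UMIs numbered 9 and 2 in F592A and 16 and 2 in WT and held 57.2% and 12.4% of the members' UMIs in F592A, against 49.8% and 19.7% in WT. Without them and their like in the other class, a choice made after the data were seen, 442 genes passed in place of 542, with 320 in common.

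**Figure D4:**
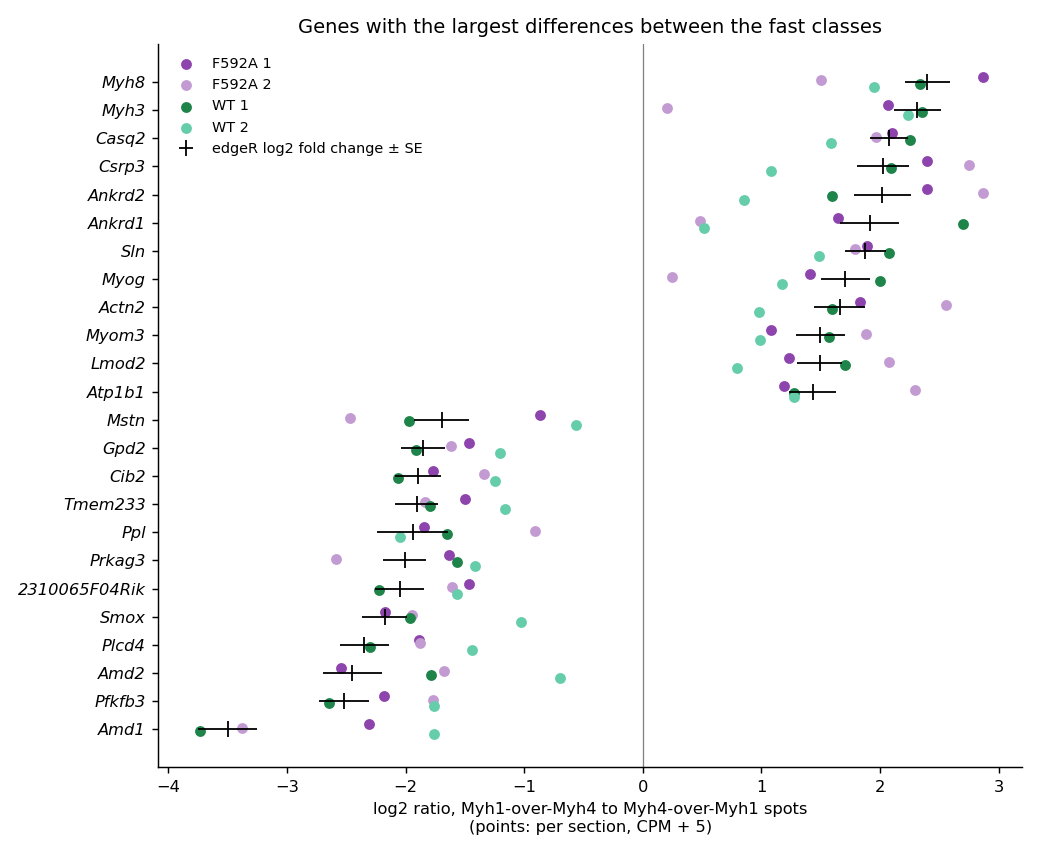
The 24 genes with the largest differences between Myh1-over-Myh4 and Myh4-over-Myh1 spots (rows), with the log2 ratio on the x axis. Coloured points are single sections from CPM plus 5, and black marks are edgeR's log2 fold change with its SE. In the upper 12 genes all points lie right of 0 and in the lower 12 all lie left of it.

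Slow-bearing muscle spots differed from the members at more genes, 1018 of 6797 tested (15.0%), of which 542 were higher in members (7.97%) and 476 were lower (7.00%). The members were lower in most tested slow and mitochondrial genes and higher in most tested connective tissue and macrophage genes. Strit1, a small protein that activates the calcium pump, was at 1.86 and 6.96 CPM in F592A and 7.71 and 8.09 CPM in WT in members, against 51.3 and 88.7 CPM in F592A and 75.8 and 49.0 CPM in WT in slow-bearing spots (-3.67 ± 0.31, adjusted p = 1.23e-10). Tpm3 was at 128 and 205 CPM in F592A and 382 and 287 CPM in WT, against 1165 and 1762 CPM in F592A and 2165 and 1939 CPM in WT (-2.94 ± 0.18, adjusted p = 1.10e-13). Members were lower for both genes in all 4 sections, and 30.9% of all genes tested in this comparison lay on the same side in all 4. Atp2a2 (-1.99 ± 0.19), Sln (-1.65 ± 0.18), Homer2, a synaptic and muscle scaffold (-1.98 ± 0.21), Ldhb, lactate dehydrogenase B (-1.74 ± 0.18), and Pcp4l1 (-1.73 ± 0.17) were lower too. Atp2a2, Sln, Tpm3, Myoz2 and Csrp3 were higher in members than in Myh4-over-Myh1 spots and lower than in slow-bearing spots, each by its own test. Against slow-bearing spots the values were -1.69 for Myoz2 and -0.90 for Csrp3. The rule split members from slow-bearing spots by their slow genes, so the lower values there are not independent of it. The higher values over Myh4-over-Myh1 spots moved with the limit on slow genes. Under the lower limit described above, Sln no longer passed and Tpm3 was nearly level.

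Of 16 tested fatty acid genes 15 were lower in members than in slow-bearing spots and none was higher, with a median of -1.0. Fabp3 (-1.45 ± 0.19), Lpl, lipoprotein lipase (-1.31 ± 0.19), Acsl1 (-1.16 ± 0.17) and Cpt1b, the gate for fatty acid entry into mitochondria (-1.12 ± 0.17), had the smallest p-values. Of these 4, Lpl, Acsl1 and Cpt1b had not passed against Myh4-over-Myh1 spots. The 6 fatty acid genes that were higher than in Myh4-over-Myh1 spots were each lower here, such as Acadl (-0.78 ± 0.16) and Cd36 (-0.99 ± 0.16). Of 22 nuclear oxidative phosphorylation genes 16 were lower, with a median of -0.55, led by the muscle cytochrome oxidase subunits Cox8b (-1.02 ± 0.18), Cox7a1 (-0.82 ± 0.17) and Cox6a2 (-0.84 ± 0.19). Glycolysis split, with 2 of 17 higher, Ldha (0.48) and Gpd1 (0.72), and 3 lower, the glycogen synthase gene Gys1 (-0.64), the hexokinase gene Hk2 (-0.69) and Slc2a4, the insulin-responsive glucose transporter (-0.72). Maf was higher in members here (0.53 ± 0.17, adjusted p = 0.0316). The call of Ldha was lost without any 1 of the 4 sections, that of Gpd1 without F592A 1, F592A 2 or WT 2, that of Maf without F592A 2, WT 1 or WT 2, and those of Gys1, Hk2, Slc2a4, Cox6a2, Casq1 and Pdlim3 without F592A 1 or WT 1.

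The genes with the largest rises over slow-bearing spots were Mymk (1.92 ± 0.29), Gdf10, a factor of the TGF-beta family (1.77 ± 0.28), Mss51, Myh8 (1.61 ± 0.23), Tceal7 (1.60 ± 0.23) and C4b, a complement component (1.56 ± 0.25). In the lists of other tissues, 8 of 9 tenocyte genes, 8 of 10 macrophage genes and 7 of 10 fibroblast genes were higher in members and none was lower. The summed tenocyte list was at 39219 and 18849 CPM in F592A members and 29129 and 60232 CPM in WT members, against 19878 and 8420 CPM in F592A and 18001 and 22774 CPM in WT slow-bearing spots. The macrophage list was at 2156 and 722 CPM in F592A and 2090 and 1412 CPM in WT members, against 900 and 420 CPM in F592A and 838 and 1336 CPM in WT slow-bearing spots, so members were higher in each section. Members up to 20000 UMIs held the macrophage list at 1096 and 600 CPM in F592A and 1457 and 1405 CPM in WT. They held the tenocyte list at 28502 and 13567 CPM in F592A and 27098 and 50670 CPM in WT. The slow-bearing values include spots over 20000 UMIs. The part of this tissue in the differences of other genes was not tested. Without spots over 20000 UMIs 570 genes passed in place of 1018, and 382 passed without F592A 1 and 372 without WT 1.

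Between the groups, Myh3, Sln, Dlk1 and Igf2 were lower and Krt77, Cfd, Adipoq and Cyp2e1 higher in F592A members. Of 8399 genes tested 8 passed (0.0952%), 4 higher in F592A and 4 lower (0.0476% each), and 418 had an unadjusted p under 0.05. The 20 genes of the rule were among the 8399, and none of them passed. A gene that did not pass is not shown to be alike in the groups. The genes that were higher in F592A, Krt77, Cfd, Adipoq and Cyp2e1, are known from skin or fat. Those that were lower, Myh3, Sln, Dlk1 and Igf2, are known from young or growing muscle. Leaving out 1 section gave between 4 calls (without F592A 2) and 202 (without F592A 1), with 14 without WT 1 and 44 without WT 2. Sln, Cfd and Myh3 kept their calls in these 4 fits, Krt77 and Igf2 lost theirs without F592A 2, Dlk1 without F592A 2 or WT 1, and Adipoq and Cyp2e1 without any 1 of F592A 1, F592A 2 and WT 1. DESeq2 called 5 genes, of which Cfd, Dlk1 and Sln were shared with the 8 and Mest and Scd1 were not, so that Myh3, Igf2, Krt77, Adipoq and Cyp2e1 lost their calls. With the slow list under 0.5% Cfd, Igf2, Krt77 and Myh3 passed and Sln did not. Without spots over 20000 UMIs Dlk1 and Cyp2e1 did not pass. Both of these settings were chosen after the data were seen.

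Myh3 was at 26.1 and 1.74 CPM in F592A and 555 and 364 CPM in WT, with means of 13.9 ± 17.2 CPM in F592A and 459.7 ± 135 CPM in WT (SD, n = 2 each; log2 fold change -4.78 ± 0.60, adjusted p = 0.00155). Sln was at 46.6 and 47.0 CPM in F592A and 467 and 465 CPM in WT (-3.20 ± 0.41, adjusted p = 0.00155), and each group's sections lay close together. Dlk1, a membrane protein of growing and regenerating muscle, was at 7.46 and 3.48 CPM in F592A and 173 and 32.4 CPM in WT (-4.12 ± 0.63, adjusted p = 0.00841). Igf2, a growth factor of fetal and regenerating muscle, was at 26.1 and 3.48 CPM in F592A and 454 and 113 CPM in WT (-4.04 ± 0.63, adjusted p = 0.00841). For all 4 genes both F592A sections lay below both WT sections, a separation of the groups in either direction that 33.4% of all tested genes showed.

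The next genes by p did not pass. Mest, an enzyme of growing tissue, was at 173 and 40.0 CPM in F592A and 809.8 and 421 CPM in WT (-2.43 ± 0.53, adjusted p = 0.147). Meg3 and Rian, non-coding RNAs from the imprinted region of Dlk1, had -1.77 ± 0.37 (adjusted p = 0.140) and -2.25 ± 0.46 (adjusted p = 0.115), and Plagl1, a zinc finger factor, had -2.49 ± 0.53 (adjusted p = 0.142). In the regenerating list 1 of 9 tested genes passed and 8 had negative values, with a median of -2.39 beside -0.00 for all tested genes. Myog was at 32.6 and 3.48 CPM in F592A and 174 and 32.4 CPM in WT (-2.39 ± 0.62, adjusted p = 0.292) and Mymk at 21.4 and 1.74 CPM in F592A and 133 and 24.3 CPM in WT (-2.63 ± 0.63, adjusted p = 0.199); WT 1 stood above the other 3 sections in both. The summed regenerating list was at 640.3 and 109.7 CPM in F592A members, against 4199 and 1105 CPM in WT members. In members up to 20000 UMIs it was at 216 and 95.4 CPM in F592A, against 1365 and 901 CPM in WT. The 16 deeper members of WT 1 were at 7054 CPM. When the spots rich in embryonic myosin were left out of both groups, Sln alone passed, Igf2 was at -2.54, and Actc1 was at 0.08 in place of -2.80. The limit took 30 and 7 members from WT but 1 and 0 from F592A. These changes therefore cannot be told apart from the unequal removal. Myh3, itself read by that limit, was at -2.41.

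On the higher side, Cfd, adipsin, a serine protease that fat cells secrete, was at 410.1 and 218 CPM in F592A and 27.0 and 20.2 CPM in WT (3.77 ± 0.46, adjusted p = 0.00155). Adipoq, adiponectin, had 55 UMIs in the F592A members and 2 in the WT members, a CPM ratio of 25.8 with an exact 95% counting interval of 6.80 to 218 (adjusted p = 0.00841). Cyp2e1, a cytochrome P450 found in fat and liver, had 57 UMIs in F592A and 3 in WT, a ratio of 17.8 (5.79 to 88.9, adjusted p = 0.0146). Krt77, a keratin of the epidermis and sweat ducts, had 207 UMIs in F592A and 5 in WT, a ratio of 38.8 (16.4 to 121, adjusted p = 0.00771), and F592A 2 held most of it at 252 CPM, against 57.8 CPM in F592A 1. These intervals cover counting error only. Retn, resistin, had 33 UMIs in F592A and none in WT, at least 10.3-fold higher against a floor of 3 counts over the group, and it did not pass (adjusted p = 0.0755). Scd1, Krt15 and Myoc had 2.13 ± 0.44 (adjusted p = 0.124), 2.81 ± 0.64 (adjusted p = 0.169) and 1.82 ± 0.41 (adjusted p = 0.169).

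Some genes of the fat and skin lists passed, where 4 of all 8399 tested genes (0.0476%) passed as higher in F592A. Of 5 tested adipocyte genes 2 passed, Cfd and Adipoq, and Fabp4 had 0.77 ± 0.42 (adjusted p = 0.993). The summed adipocyte list was at 2344 and 2759 CPM in F592A, against 2297 and 3371 CPM in WT, so that the groups did not separate, and in WT 2 Adipoq, Plin1, Lep and Retn were at 0. Car3, carbonic anhydrase 3, which muscle makes as well as fat, made up most of the sum. Of 7 keratinocyte genes 1 passed and all 7 had positive values, with a median of 2.01: Krt5 had 2.44 ± 0.57 (adjusted p = 0.181), Krtdap 2.34 ± 0.59 and Lor 2.01 ± 0.55. The summed list was at 491 and 1862 CPM in F592A, against 467 and 247 CPM in WT. What fat and skin RNA contribute to these calls was not tested.

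**Figure D5:**
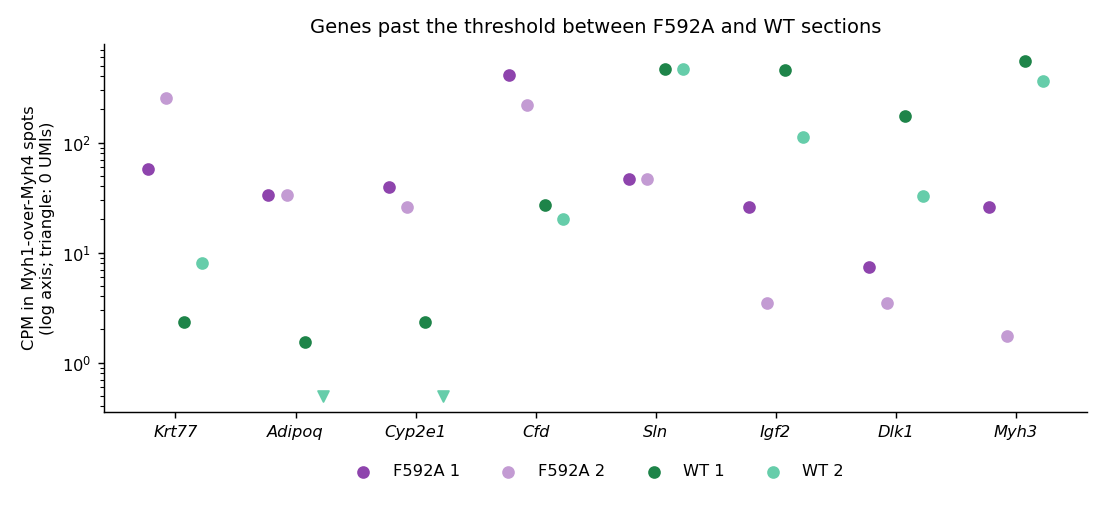
CPM on a log axis of the 8 genes past the threshold between F592A and WT members, 1 point per section, F592A purple and WT green, with triangles at the bottom for 0 UMIs. In each of the 8 genes both F592A sections lie on one side of both WT sections, as they do in 33.4% of all 8399 tested genes.

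No gene of the metabolic lists passed between the groups. All 22 oxidative phosphorylation genes, all 17 glycolysis genes and all 16 fatty acid genes had positive values in F592A over WT, with medians of 0.65, 0.56 and 1.03. Of all tested genes 49.8% had positive values. None of the 3 lists had a call by edgeR or DESeq2, with 1, 1 and 9 of their genes at an unadjusted p under 0.05. The slow fibre list ran the other way, with 9 of 10 genes negative and a median of -0.76, and none of it passed by either tool. The rule read 6 of these 10 genes and capped their sum. The list is therefore given as a description and is no independent sign of a group difference. Tpm3, which the rule did not read, had -0.88 ± 0.41, and Sln was lower in the same sections. In the denervation and neuromuscular junction list 9 of 11 genes were negative, with a median of -0.37 and 2 at an unadjusted p under 0.05, and none passed by either tool. Pdk4, which turns muscle from glucose to fat, was at 147 and 308 CPM in F592A and 77.1 and 28.3 CPM in WT (2.12 ± 0.48, adjusted p = 0.169), with both F592A sections above both WT sections. Acsl1, Slc25a20 and Fabp3 had 1.37 ± 0.44, 1.23 ± 0.42 and 1.32 ± 0.48. The genes linked to the name had 1.19 ± 0.62 for Mss51, 0.38 ± 0.43 for Casq1, 0.41 ± 0.43 for Mybpc1 and -0.03 ± 0.48 for Pdlim3, with adjusted p-values of 0.993 or more. Mstn had 0.24 ± 0.52, Ppargc1a -0.41 ± 0.76, Chrna1 -1.04 ± 0.51, Trim63 0.01 ± 0.35, Fbxo32 -0.25 ± 0.51 and Ddx3y 0.74 ± 0.56, and none of the 6 passed.

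The 8 genes had group means in the same direction in the Myh4-over-Myh1 spots of the same sections. For none of them did the interaction of group and class pass in the main fit. In Myh4-over-Myh1 spots Myh3 averaged 1.63 ± 1.09 CPM in F592A and 89.0 ± 22.4 CPM in WT (SD, n = 2 each), Sln 9.49 ± 0.772 CPM in F592A and 135 ± 39.8 CPM in WT, and Cfd 257 ± 94.6 CPM in F592A and 40.0 ± 24.3 CPM in WT. That interaction gave 0.71 ± 0.53 for Myh3, 0.57 ± 0.38 for Sln and 1.35 ± 0.49 for Cfd on the log2 scale, with adjusted p-values of 1.00 each. Dlk1 came closest of the 8, at -2.69 ± 0.61 (adjusted p = 0.355), and its interaction passed with no filter on low counts. That none of the 8 passed therefore depends on the setting.

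Across all 11497 genes tested for that interaction 1 passed (0.00870%). It was Actc1, cardiac actin, the actin of heart and of newly formed skeletal fibres. Members held 121 and 29.6 CPM in F592A and 1005 and 134 CPM in WT, against 222 and 280.3 CPM in F592A and 445 and 70.9 CPM in WT in Myh4-over-Myh1 spots. In both F592A sections the members were below the Myh4-over-Myh1 spots, and in both WT sections they were above them. The interaction was -2.76 ± 0.46 (adjusted p = 0.0142), and Actc1 passed without each section in turn and by DESeq2, where 1 gene passed too. When the spots rich in embryonic myosin were left out, the interaction of Actc1 was -0.11 and did not pass. That fit left 1 call, of Myh8, itself read by that limit. The limit removed 30 and 7 members in WT, against 1 and 0 in F592A, so it cannot decide what the interaction of Actc1 rests on. Mss51 was next at 2.21 ± 0.42 (adjusted p = 0.0554), and it passed under RLE scaling, with no filter on low counts, without spots over 20000 UMIs, and without any 1 of F592A 1, F592A 2 and WT 2.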

How the data were processed

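The 4 Visium arrays comprised 2 of F592A and 2 of WT. The deposited matrices hold raw UMI counts of 32285 genes per spot, made by the authors with Space Ranger 1.3.0, per the file headers, and the submitters' processing notes name the build mm10. Their barcodes are exactly the spots under tissue. Of the deposited spots, those under 500 UMIs (3, 3, 4 and 3) were left out. Images and scale factors were not used.

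Spots were classed by the shares of 2 gene lists and by Myh1 against Myh4. UMIs were summed per section and class with at least 10 spots, so that the section and not the spot was the replicate. CPM scales these counts to the total of the class in the section. edgeR 4.0.16 (R 4.3.3, TMM scaling, filterByExpr, glmQLFit and glmQLFTest, Benjamini-Hochberg threshold 0.05) tested genes, with the section as a block in comparisons between classes of the same sections. The SE is the size of the log2 fold change divided by the square root of F. Shares were compared with exact permutation tests that listed every split of the sections. The exact intervals of count ratios were made with scipy 1.17.1. The gene tests were checked on simulated data. Spots held mixed cells, and no deconvolution or doublet caller was run.

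The members, the 31 gene lists and the naming rule were chosen with earlier results of these data known. The rule named genes that passed, averaged a log2 CPM of 5 or more and moved the same way in every section, up to 12 per direction between the groups and between the fast classes and 6 against slow-bearing spots, filled to 8 by smallest p between the groups, plus the 4 members with the smallest p of each main list, and a few fixed genes. Members that complete a list's count, and those of the interaction, were named after their values were seen. Alternatives were RLE scaling, DESeq2 1.42.0, no filter on low counts, other limits of the rule and leaving out each section. Depth per section and its precision are given with the results, intervals are exact at 95% and, like the floor of 3 counts, cover counting error only.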

Additional observations from a re-analysis of the deposited data

Results flagged for a closer look

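Actc1, cardiac actin, was singled out because its difference between the groups was not the same in the 2 fast muscle classes, by the test of that difference itself. The log2 ratio of Myh1-over-Myh4 to Myh4-over-Myh1 spots was lower in F592A than in WT by -2.76 on the log2 scale (edgeR's interaction term, adjusted p = 0.0142, 1 of 11497 genes). In the Myh1-over-Myh4 spots Actc1 was at 121 and 29.6 CPM in F592A, against 1005 and 134 CPM in WT. In the Myh4-over-Myh1 spots it was at 222 and 280.3 CPM in F592A, against 445 and 70.9 CPM in WT. Without the spots rich in embryonic myosin, a limit chosen after seeing the data, the term was -0.11. The limit took 30 and 7 members from WT but 1 and 0 from F592A. That fit therefore cannot decide what the term rests on.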

How the results depend on the processing

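The share of members kept its direction under 4 other definitions, and ranged from -0.188 to 1.83 percentage points when a section was left out, with -0.188 without WT 2. Between the groups the 8 calls became 5 by DESeq2, 62 with no filter on low counts, 4 to 202 without 1 section, 55 with at least 2 times as much Myh1 as Myh4 (which left out WT 2), 4 with the slow list under 0.5% and 1 without spots rich in embryonic myosin. When the lone section of a group was fitted, it was assumed to vary like the other group. The fit with the fast list at 10% could not be made, since the WT sections then held 7 and 6 members. The section numbers were not shown to pair the sections: over 4472 genes the deviations of same-numbered sections correlated at 0.127 in 2 pairs, and with the number as a replicate block 62 genes passed. Between the fast classes the 542 calls became 253 by DESeq2, 75 with the fast list at 10% (F592A sections alone), 328 with at least 30 spots, 326 without spots rich in embryonic myosin, and 212 to 969 without 1 section. Against slow-bearing spots the 1018 calls became 416 by DESeq2, 570 without spots over 20000 UMIs and 372 to 1090 without 1 section. For the interaction the 1 call became 2 under RLE scaling, 4 with no filter, 3 without spots over 20000 UMIs and 2 to 63 without 1 section. The cause was not tested. The settings on a slow list under 0.5%, on spots over 20000 UMIs and on embryonic myosin were chosen after seeing the data.

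Of single genes between the groups, Actc1 turned to 0.084 and Chrna1 to 0.38 without embryonic spots, Ddx3y to -0.033 and Fbxo32 to 0.32 with the 2-times limit, Mstn to -0.0026 with the slow list under 0.5%, and Trim63 to -0.22 without deep spots and -0.50 without embryonic ones. Leaving out 1 section gave -1.60 to 1.18 for Chrna1, -0.96 to 0.45 for Fbxo32, -0.029 to 2.84 for Mss51, -0.68 to 0.86 for Mstn, -0.90 to 0.51 for Pdlim3, -1.59 to 0.42 for Ppargc1a and -0.024 to 0.056 for Trim63. Between the fast classes, with the fast list at 10%, Gatm turned to -0.49, Igf2 to -0.58, Mss51 to 0.080 and Tpm3 to -0.12, and Pdlim3 turned to 0.00098 with at least 30 spots, 0.22 with the slow list under 0.5% and 0.12 without embryonic spots, and gave -0.18 to 0.17 without 1 section. The interaction of Myh3 gave -1.13 to 1.04 without 1 section. Depth limits the members of WT 2 most, with 25 spots.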
